A study of Danio rerio with 18 samples.

Results

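Whole-body RNAseq of zebrafish larvae lacking functional Sox10 was compared here with that of wild-type larvae, over all 25581 genes of the table deposited for 4 dpf. This table covers 6 of the 18 libraries labelled in the series, namely 3 pools of homozygous sox10 mutants (10 to 12 larvae each) and 3 pools of wild types (10 to 15 larvae each). Mutants carried 2 copies of the ci3020 allele, in which the start of the gene is deleted, including its earliest coding sequence, although RNA is still made from the locus. Wild types were stage-matched animals of the same families, and each pool was homogenised whole. Values of the 7 dpf table are identical to those of the 4 dpf table in 6 of 6 libraries, so the larvae may have been sampled at either age, and "4 dpf table" is used below as a label. Pools of 7 dpf held 7 to 18 mutants or 12 to 30 wild types.

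Sox10 is a SoxE transcription factor switched on in the neural crest, the migratory embryonic population that yields pigment cells, peripheral glia, enteric neurons and part of the facial skeleton. In zebrafish it is required for the non-skeletal derivatives, and it also acts in oligodendrocytes and in the ear. Larvae without it lack most body pigment cells and die before reaching juvenile stages. The black pigment of the eye is made by the retinal pigment epithelium, a derivative of the optic cup and not of the crest, and it uses the same melanin enzymes.

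Every level below is in TPM rescaled between libraries, since TPM are fixed to a common sum and a few very abundant genes took a larger share in mutants. The 14 genes above 10000 TPM in any library held 39.0%, 23.4% and 26.9% of all TPM in mutants 1, 2 and 3, against 15.7%, 18.2% and 16.3% in wild types 1, 2 and 3. Rescaling by median ratios brought the median log2 fold change of all tested genes to 0.03, where it was -0.33 as deposited. Genes were tested with limma on log2(rescaled TPM + 1), and a gene was called where its adjusted P did not exceed 0.05 and its log2 fold change was 0.32 or more in size, the thresholds of the study. In whole larvae, fewer cells of a type and less RNA per cell cannot be told apart, and the P-values measure the spread among these pools only.

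Mutant 2 lay nearer to the wild types than the other mutant pools did. Across the 17291 tested genes, its log2 values correlated with wild types at r = 0.965, 0.974 and 0.939, whereas those of mutant 1 did so at 0.883, 0.927 and 0.842 and those of mutant 3 at 0.909, 0.945 and 0.867 (a description across genes). Mutant 2 correlated with mutants 1 and 3 at 0.945 and 0.964, and mutants 1 and 3 with each other at 0.977. Genes at 1 deposited TPM or more numbered 14465, 16698 and 15790 in mutants 1, 2 and 3. Wild types 1, 2 and 3 had 18158, 16958 and 18186. Mutant 2 lay within the wild-type range for 36.1% of tested genes, mutant 1 for 15.9% and mutant 3 for 20.5%. Where mutants 1 and 3 were both below every wild type (5476 genes), mutant 2 was below them too for 67.5% of the genes and inside the wild-type range for 27.6%. Where mutants 1 and 3 were both above (6076 genes), mutant 2 was above as well for 64.0% and inside the range for 30.6%. Replicate 2 is reported by its label, and its values are given for most genes described singly.

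In total, 27 genes fell in mutants and 14 rose, which is 0.156% and 0.0810% of the genes tested (limma). All 41 had mutant and wild-type values that did not overlap. Falls ran from -1.02 to -4.51 on the log2 scale and rises from 1.22 to 2.89. Complete separation of the 3 and 3 libraries was much more frequent than calls, at 21.4% of all tested genes lower in mutants and 22.5% higher. Another 2906 genes had an adjusted P just above the threshold, between 0.05 and 0.06, and at 0.10 the counts would be 3182 lower (18.4%) and 2724 higher (15.8%). The study's own DESeq2 test, at the same thresholds, called many more genes, most of them lower. The counts given here are those of limma on rescaled TPM and do not measure the size of the mutant change. Why the tests differ in number of calls was not tested.

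The number of calls depended on single libraries. Without mutant 2 the same test called 3334 genes lower and 2940 higher (19.6% and 17.3% of the 16982 genes tested), and all 34 of the 41 called genes that could still be tested were called. Without mutant 1, 10 of 34 were called. Without mutant 3 this was 1 of 34. Without wild type 1 or wild type 3 it was 1 of 32 in each case, and without wild type 2 it was 8 of 32. The gene kept in all of these fits was ENSDARG00000114516, and 0 directions were reversed.

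**Figure D1:**
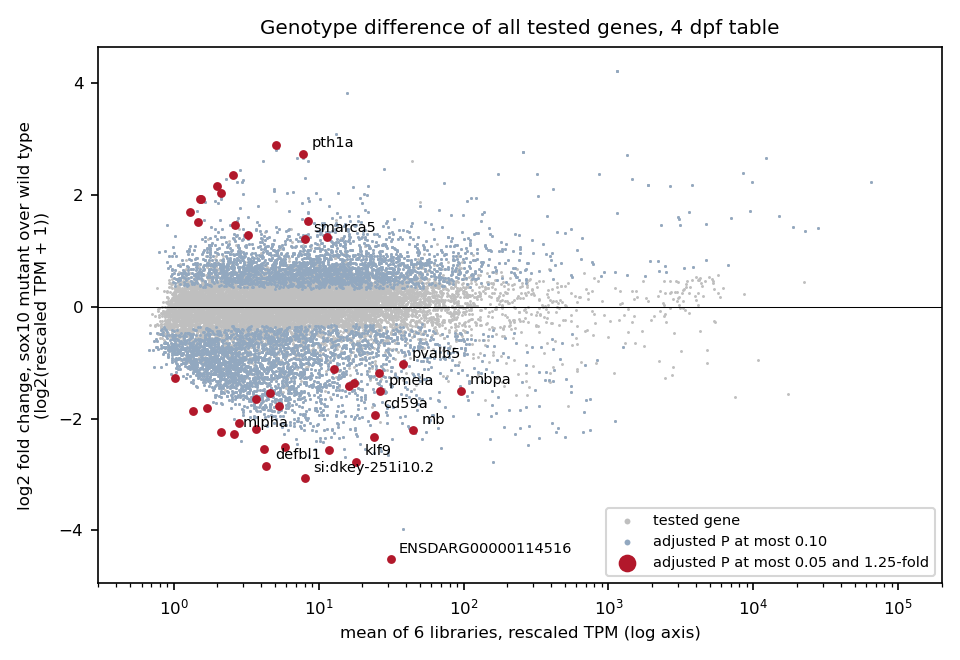
Each point is a tested gene, with the mean rescaled TPM of the 6 libraries on a log axis against the log2 fold change of sox10 mutants over wild types. Red points are the 27 called falls and 14 called rises, blue points the other genes at an adjusted P of at most 0.10. The called genes lie away from the most abundant ones, and ENSDARG00000114516 has the largest fall at -4.51.

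Transcripts of sox10 itself (ENSDARG00000077467) were at 8.24, 8.58 and 6.95 rescaled TPM in mutants, against 5.91, 4.92 and 5.02 in wild types. Every mutant pool was above every wild-type pool, by 0.50 ± 0.14 on the log2 scale (± standard error) and a limma adjusted P of 0.0583, so the gene was not called. The deletion does not remove the whole transcript, so its level does not check the genotype labels.

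Genes of black, yellow and silver pigment cells made up the most recognisable group among the falls. Of 12 tested genes of melanin synthesis and the melanosome, 3 fell past the threshold and 9 lay lower without overlap (21.4% of all genes), with a median log2 fold change of -0.90 against 0.03 for all genes. Melanophilin a (mlpha, ENSDARG00000070991), the adaptor that couples melanosomes to their myosin motor, was at 0.136, 0.346 and 0.201 rescaled TPM in mutants, against 4.81, 3.94 and 6.23 in wild types. Its mutant values were close to 0 in every pool, and the log2 fold change was -2.27 ± 0.18 (limma adjusted P = 0.00763).

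The melanosome matrix protein gene pmela (ENSDARG00000091298) was only partly reduced, at 11.2, 17.2 and 12.1 rescaled TPM in mutants, against 39.2, 35.3 and 45.3 in wild types (log2 fold change -1.51 ± 0.19, limma adjusted P = 0.0435). The melanosomal transporter gene slc45a2 (ENSDARG00000002593) had 7.56, 8.26 and 9.04 rescaled TPM in mutants, against 28.0, 23.7 and 20.1 in wild types (-1.42 ± 0.16, adjusted P = 0.0359). Both genes thus kept a sizeable level in all 3 mutant pools. The enzymes dct and tyrp1b showed the same arrangement without passing the test. In dct (ENSDARG00000006008), which converts dopachrome, mutants had 12.4, 17.9 and 12.0 rescaled TPM and wild types 26.9, 24.8 and 30.6 (limma adjusted P = 0.0556). In tyrp1b (ENSDARG00000056151) they had 14, 26.8 and 20.4, against 53.6, 40.6 and 53 (adjusted P = 0.0556). The rate-limiting enzyme gene tyr (ENSDARG00000039077) had 0.325, 0.672 and 0.195 rescaled TPM in mutants, against 3.99, 1.90 and 5.85 in wild types (-1.74 ± 0.32, adjusted P = 0.0556). Apart from mlpha, pmela and slc45a2, these members were singled out after their values were seen. Both mlpha and tyr passed the filter on low values through their wild-type pools alone, which favours lower members in the list counts. The melanosome genes pmelb and trpm1b overlapped between genotypes, and the regulator gene tfap2e was higher in mutants, at 29.0, 17.4 and 21.8 rescaled TPM against 13.3, 17.1 and 12.1 (adjusted P = 0.0801). Other members were too low for limma. For mc1r, the melanocortin receptor gene, mutants had 0.0878, 0.117 and 0.0272 rescaled TPM and wild types 0.588, 0.512 and 0.542 (exact permutation test, two-sided, p = 0.1, the lowest that 3 against 3 can give).

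A list for the visual cycle and the pigment epithelium of the eye, which shares these enzymes, held 0 calls among 11 tested genes. This says little, as 0.156% of all genes were called lower and 0.0810% higher. By adjusted P of at most 0.10, 6 of the list were lower and 1 higher, against 18.4% and 15.8% of all genes, and the median log2 fold change was -0.52. Among the most abundant members of this list, rgrb (ENSDARG00000098724), a retinal opsin of the visual cycle, had 29.8, 42.0 and 28.9 rescaled TPM in mutants, against 59, 52.8 and 56.9 in wild types (limma adjusted P = 0.0556). The opposite order was seen for rlbp1a (ENSDARG00000012504), a retinaldehyde-binding protein also made by Müller glia, with 43.9, 32.0 and 33.6 rescaled TPM in mutants, against 21.5, 26.4 and 21.4 in wild types (adjusted P = 0.0569). The part of eye pigment in the melanin gene values was not tested.

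Iridophores, the silver cells, held 2 of the deeper falls. Of 12 listed genes only 5 reached the level needed for limma, and 2 of these fell. Without overlap, 4 were lower and 1 higher (21.4% and 22.5% of all genes). The defensin gene defbl1 (ENSDARG00000075161) had 0.485, 0.0782 and 0.405 rescaled TPM in mutants, against 7.72, 9.66 and 7.86 in wild types (log2 fold change -2.84 ± 0.17, limma adjusted P = 0.00649). The apolipoprotein D gene apoda.1 (ENSDARG00000060345) had 0.692, 0.199 and 0.734 in mutants, against 7.35, 7.18 and 9.12 in wild types (-2.54 ± 0.19, adjusted P = 0.00649). Mutant 2 was the lowest pool for both. Both genes passed the filter on low values through their wild-type pools alone, which favours lower members in the counts of this short list. The purine enzyme gene pnp4a, a standard iridophore marker, was at 1.23, 1.53 and 1.86 rescaled TPM in mutants, against 2.63, 1.99 and 2.24 in wild types (adjusted P = 0.121). Its groups did not overlap, yet the gap was small.

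Yellow xanthophores had 10 tested genes with a median log2 fold change of -0.46, of which 1 was called. Without overlap, 7 were lower and 1 higher (21.4% and 22.5% of all genes). The called gene was slc2a15b (ENSDARG00000053269), a sugar-transporter family member needed for pteridine-coloured cells in medaka, at 1.02, 1.44 and 1.33 rescaled TPM in mutants and 6.82, 4.53 and 6.93 in wild types (-1.64 ± 0.18, limma adjusted P = 0.0408). Among members chosen after their values were seen, PTS (ENSDARG00000045269), which makes a pteridine precursor, had 2.48, 9.42 and 2.67 rescaled TPM in mutants, against 21.8, 9.50 and 19.9 in wild types. Mutant 2 and wild type 2 were almost equal for this gene (adjusted P = 0.0589). Another gene named for pigment cells in its annotation, lypc (ENSDARG00000097804), a Ly6 family member, had 0.438, 0.993 and 0.666 rescaled TPM in mutants, against 6.13, 7.09 and 6.88 in wild types (-2.19 ± 0.16, adjusted P = 0.00649). The 14 genes of de novo purine synthesis, which supply both pteridine and guanine pigments, included 0 calls and had a median of -0.16. Of these, 1 was lower and 0 higher without overlap (21.4% and 22.5% of all genes). By unadjusted P, 6951 of all 17291 genes were under 0.05 in the same fit.

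**Figure D2:**
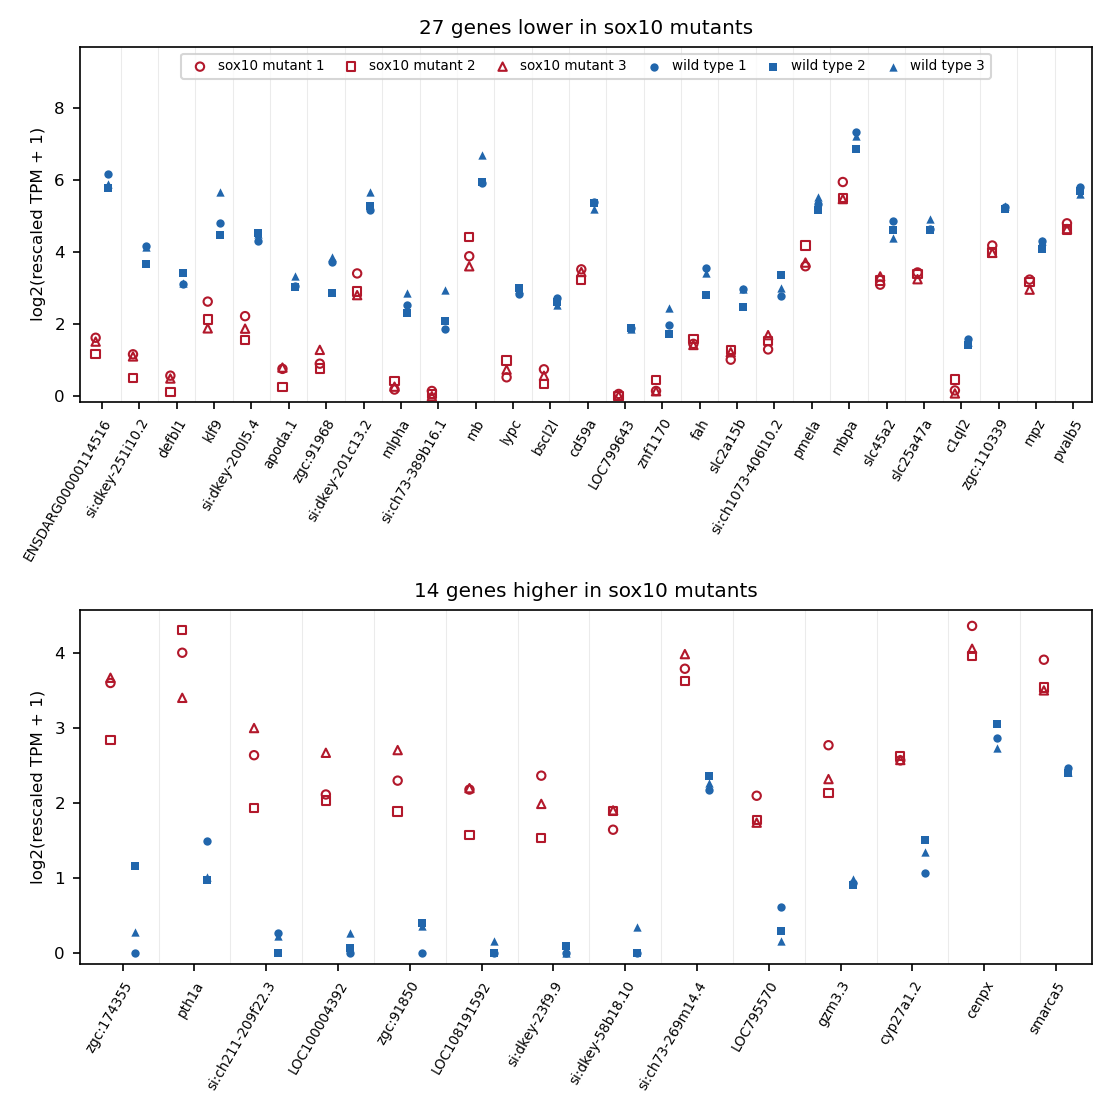
Points give log2(rescaled TPM + 1) of each called gene in each library, with open red symbols for the 3 sox10 mutant pools and filled blue symbols for the 3 wild-type pools. The upper panel shows the 27 falls, where mutant and wild-type symbols are separated for each gene, and the lower panel the 14 rises, several with wild types at or near 0.

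Myelin and peripheral glia showed a narrower change. Of 15 tested genes 2 fell, and the median log2 fold change was -0.17. Myelin basic protein a (mbpa, ENSDARG00000036186), which compacts the sheath in Schwann cells and oligodendrocytes, had 60.8, 44.3 and 43.5 rescaled TPM in mutants, against 162, 116 and 148 in wild types (-1.50 ± 0.19, limma adjusted P = 0.0487). Myelin protein zero (mpz, ENSDARG00000038609), an adhesion protein of the sheath, had 8.44, 8.05 and 6.78 in mutants, against 18.9, 15.9 and 18.9 in wild types (-1.11 ± 0.14, adjusted P = 0.0451). Both genes stayed well above 0 in every mutant pool.

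Of the 15 tested genes of this list, 6 were lower and 2 higher without overlap (21.4% and 22.5% of all genes), and the further members given here were picked out after their values were seen. The proteolipid gene plp1b (ENSDARG00000011929) had 28.3, 19.8 and 27.4 rescaled TPM in mutants, against 39.3, 37.5 and 38.9 in wild types (limma adjusted P = 0.0569). The myelin-associated glycoprotein gene mag (ENSDARG00000104023) had 0.814, 6.90 and 1.99 in mutants, against 17.5 and 20.1 in wild types 1 and 3 and a value in wild type 2 that was lower but above every mutant (-2.22 ± 0.53, adjusted P = 0.0556). Mutant 2 was nearest to the wild types. The oligodendrocyte regulator olig2 was higher without overlap (9.46 to 11.3 rescaled TPM in mutants, 7.89 to 8.56 in wild types, adjusted P = 0.160), and myrf overlapped (3.82 to 5.10 in mutants, 4.82 to 5.80 in wild types). The list names cd59, which was not matched to the complement inhibitor cd59a (ENSDARG00000090615), so cd59a was not among the 15. It fell in step in the 3 pools, at 10.5, 8.38 and 9.93 rescaled TPM in mutants, against 41.4, 40.5 and 36.1 in wild types (-1.93 ± 0.13, limma adjusted P = 0.00649).

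Radial glia are the resident glia of the larval brain. Their 13 tested genes had a median of 0.15 on the log2 scale and 0 calls, with 0 lower and 3 higher without overlap (21.4% and 22.5% of all genes). The brain lipid-binding protein gene fabp7a (ENSDARG00000007697) was high in mutants, at 974, 550 and 625 rescaled TPM, against 310, 305 and 227 in wild types (1.32 ± 0.25, limma adjusted P = 0.0556). The glutamate transporter gene slc1a2b overlapped, with 221, 215 and 186 rescaled TPM in mutants and 178, 219 and 199 in wild types.

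The largest fall belonged to a gene without a symbol in any table used here, ENSDARG00000114516. It had 2.08, 1.2 and 1.86 rescaled TPM in mutants, against 71.2, 54.1 and 58.0 in wild types, a log2 fold change of -4.51 ± 0.17 and the lowest adjusted P of the table (limma, 5.78e-04). The wild-type mean was 35.3 times the mutant mean.

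Several further genes with little annotation were near 0 in mutants. The gene si:dkey-251i10.2 (ENSDARG00000093957) had 1.24, 0.417 and 1.15 rescaled TPM in mutants, against 17.1, 11.7 and 16.7 in wild types (-3.07 ± 0.23, limma adjusted P = 0.00649). A protein with SEA domains, LOC799643 (ENSDARG00000069566), had 0.0437, 0 and 0.00916 in mutants, against 2.69, 2.73 and 2.68 in wild types (-1.86 ± 0.13, adjusted P = 0.00649). Its wild-type pools were almost equal and its mutant pools almost empty. For si:ch73-389b16.1 (ENSDARG00000101586) the values were 0.106, 0.0427 and 0 in mutants, against 2.68, 3.29 and 6.68 in wild types (adjusted P = 0.0430). The zinc-finger gene znf1170 (ENSDARG00000095397) had 0.106, 0.357 and 0.0995 in mutants, against 2.95, 2.30 and 4.44 in wild types (adjusted P = 0.0430). Of the 27 falls, 9 reached 1 TPM in wild types only, and such a gene passes the filter on low values through its wild-type pools.

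Other little-studied genes kept a measurable level. The gene si:dkey-200l5.4 (ENSDARG00000095294) was at 3.67, 1.94 and 2.67 rescaled TPM in mutants, against 18.7, 22 and 21.5 in wild types (-2.56 ± 0.19, limma adjusted P = 0.00649). The gene zgc:91968 (ENSDARG00000011076) had 0.870, 0.701 and 1.44 in mutants, against 12.2, 6.30 and 13.6 in wild types (adjusted P = 0.0408). For si:dkey-201c13.2 (ENSDARG00000094696) they were 9.63, 6.49 and 6.0, against 34.9, 37.7 and 49.5 (adjusted P = 0.0175). The groups of all 3 genes were separated several-fold. The seipin-like gene bscl2l (ENSDARG00000025912), of a family that builds lipid droplets, had 0.678, 0.261 and 0.482 rescaled TPM in mutants, against 5.68, 5.14 and 4.74 in wild types (-2.08 ± 0.16, adjusted P = 0.00649). The remaining unannotated falls were si:ch1073-406l10.2 (-1.54, adjusted P = 0.0466) and zgc:110339 (-1.18 ± 0.12, adjusted P = 0.0246), which lost less.

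The falls also held genes of metabolism and hormone response. The transcription factor klf9 (ENSDARG00000068194), a direct target of glucocorticoid and thyroid hormone receptors, had 5.18, 3.39 and 2.69 rescaled TPM in mutants, against 26.8, 21.4 and 49.5 in wild types (-2.77 ± 0.33, limma adjusted P = 0.0430). The groups were far apart, although wild type 3 was well above the other wild types. Of 12 tested genes of glucocorticoid response and steroid synthesis klf9 was the only call. At an adjusted P of 0.10, 4 were lower and 0 higher (18.4% and 15.8% of all genes), and the list median was -0.20.

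Myoglobin (mb, ENSDARG00000031952), the oxygen-binding protein of muscle, had 13.8, 20.5 and 11.2 rescaled TPM in mutants, against 59.7, 60.3 and 103 in wild types (-2.21 ± 0.29, limma adjusted P = 0.0487). The fumarylacetoacetase gene fah (ENSDARG00000101762), the last step of tyrosine breakdown, had 1.74, 2.00 and 1.68 in mutants, against 10.9, 5.95 and 9.76 in wild types (-1.78 ± 0.22, adjusted P = 0.0430). The mitochondrial carrier gene slc25a47a (ENSDARG00000059923) had 9.83, 9.57 and 8.51 in mutants, against 24.2, 23.5 and 29.2 in wild types (-1.37 ± 0.14, adjusted P = 0.0233). The mutant pools were close to each other for fah and slc25a47a, and less so for mb. The calcium-buffering protein gene pvalb5 (ENSDARG00000032836) had the smallest fall, with 26.9, 23.7 and 24.0 rescaled TPM in mutants and 55.3, 50.9 and 47.8 in wild types (-1.02 ± 0.12, adjusted P = 0.0430). The secreted C1q-like gene c1ql2 (ENSDARG00000015592) had 0.117, 0.378 and 0.0542 in mutants, against 2.01, 1.69 and 1.86 in wild types (-1.28 ± 0.16, adjusted P = 0.0430).

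The 14 rises were mostly of low level, with mutant means under 10 rescaled TPM for 10 of them, and 7 reached 1 TPM in mutants only. Among the better-known ones was pth1a (ENSDARG00000093738), a parathyroid hormone gene that acts on calcium balance, at 15.0, 18.8 and 9.55 rescaled TPM in mutants, against 1.82, 0.954 and 1.02 in wild types (2.74 ± 0.26, limma adjusted P = 0.0206). All mutant pools were several-fold above all wild types, mutant 2 highest. The study's own DESeq2 test at 4 dpf did not call pth1a. The chromatin remodelling ATPase gene smarca5 (ENSDARG00000052348) had 14, 10.6 and 10.3 in mutants, against 4.50, 4.26 and 4.33 in wild types (1.22 ± 0.15, adjusted P = 0.0430). The centromere protein gene cenpx (ENSDARG00000089291) had 19.5, 14.5 and 15.6 in mutants, against 6.29, 7.27 and 5.65 in wild types (1.24 ± 0.16, adjusted P = 0.0467). Wild-type pools differed little from each other for either gene.

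A sterol hydroxylase gene, cyp27a1.2 (ENSDARG00000069186), was at 4.92, 5.16 and 4.94 rescaled TPM in mutants, against 1.09, 1.85 and 1.54 in wild types (1.28 ± 0.15, limma adjusted P = 0.0430). A granzyme, gzm3.3 (ENSDARG00000093990), of the serine proteases stored in granules of cytotoxic cells, was at 5.81, 3.38 and 3.98 in mutants, against 0.914, 0.869 and 0.983 in wild types (1.46 ± 0.19, adjusted P = 0.0468). Granzyme copies lie in tandem, so reads may be shared between them. The unannotated si:ch73-269m14.4 (ENSDARG00000086612) was at 12.8, 11.3 and 14.8, against 3.52, 4.12 and 3.81 (1.53 ± 0.14, adjusted P = 0.0184).

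The other rises were at or near 0 in wild types. For si:dkey-58b18.10 (ENSDARG00000109911) mutants had 2.12, 2.70 and 2.73 rescaled TPM and wild types 0, 0 and 0.270 (limma adjusted P = 0.0208). For si:dkey-23f9.9 (ENSDARG00000116521) mutants had 4.14, 1.89 and 2.96 and wild types 0, 0.0684 and 0 (adjusted P = 0.0408). For si:ch211-209f22.3 (ENSDARG00000088658) mutants had 5.21, 2.81 and 6.98 and wild types 0.198, 0 and 0.174 (adjusted P = 0.0408). The mutant pools carried transcripts that the wild-type pools barely registered. Because log2(rescaled TPM + 1) compresses such low values, their fold changes are understated. The gene LOC795570 (ENSDARG00000093602) had 3.27, 2.42 and 2.33 in mutants, against 0.527, 0.228 and 0.113 in wild types (adjusted P = 0.0430).

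The other called rises are grouped here by a shared protein name or by position. Proteins named RBBP6, a ubiquitin ligase, or RBBP6-like are encoded by 30 listed ids. Without overlap, 17 of them were higher in mutants and 1 lower (22.5% and 21.4% of all tested genes). These counts include untested ids, unlike the shares. The name was taken up because called rises carried it, so the excess over these shares is not evidence for the group. The filter on low values was passed by 17 ids, 7 of them through their mutant pools alone, and 2 were called. These were LOC100004392 (ENSDARG00000100754), with 3.32, 3.09 and 5.35 rescaled TPM in mutants and 0, 0.0505 and 0.198 in wild types (limma adjusted P = 0.0194), and LOC108191592 (ENSDARG00000115184), with 3.52, 1.97 and 3.58 in mutants and 0, 0 and 0.121 in wild types (adjusted P = 0.0294). Ids of this kind may share reads, which was not examined, so the level of any single id is uncertain. Of the 30 ids, 4 also belong to the group of neighbours described next.

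By the GRCz12tu gene table, 17 of the listed ids lie between npepps and ap1s2, among them 2 called rises, and this group was noticed in the data. These ids were placed on 14 genes, so some share a gene and are not separate neighbours. Of the 17 ids, 14 were higher in mutants without overlap and 0 lower (22.5% and 21.4% of all tested genes). Because the group was picked out by its values, the excess over these shares is not evidence for it. The counts also include untested ids, unlike the shares. The filter on low values was passed by 13, 11 of these through their mutant pools alone. The called gene zgc:174355 (ENSDARG00000115079) had 11.1, 6.15 and 11.7 rescaled TPM in mutants, against 0, 1.24 and 0.208 in wild types (2.89 ± 0.35, limma adjusted P = 0.0430). The called gene zgc:91850 (ENSDARG00000110231) had 3.91, 2.69 and 5.51 in mutants, against 0, 0.318 and 0.285 in wild types (adjusted P = 0.0408). The most abundant was zgc:174357 (ENSDARG00000110460), at 52.3, 8.87 and 30.1 in mutants, against 0.0316, 1.5 and 1.3 in wild types (adjusted P = 0.0556). Summed over the 17 ids, mutants 1, 2 and 3 had 155, 45.6 and 118 rescaled TPM, against 0.402, 7.48 and 4.36 in wild types. Mutant 2 was lowest of the mutants in this sum but well above each wild type. In the 45 hpf table the same sum was 8.77, 6.23 and 17.2 in mutants, against 0.215, 6.01 and 6.04 in wild types, and mutant 2 was there only just above wild types 2 and 3.

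**Figure D3:**
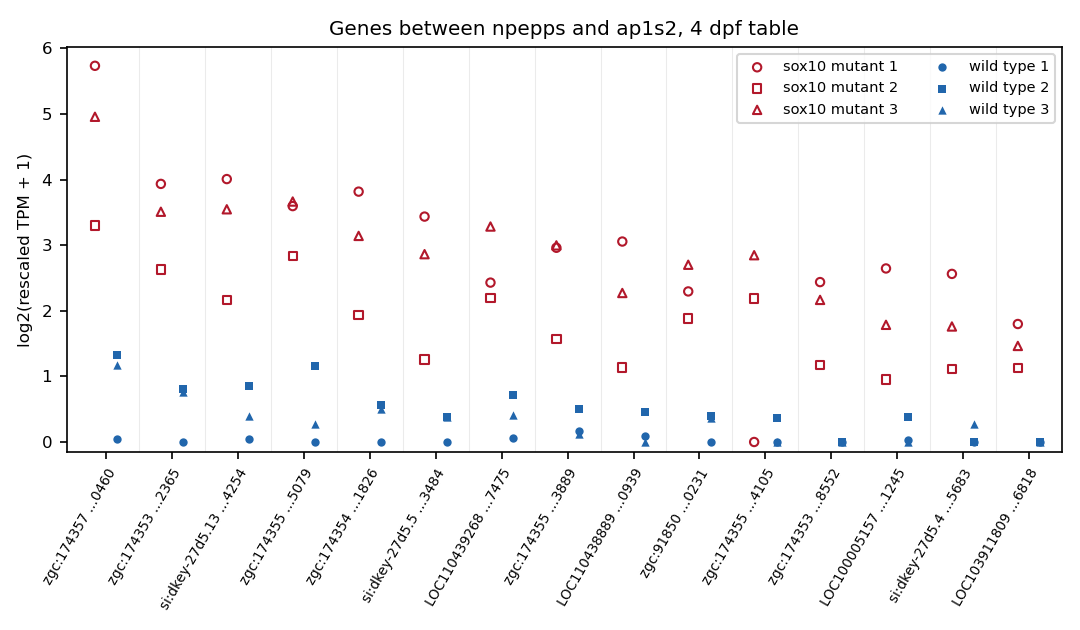
The plot gives log2(rescaled TPM + 1) in each library for the 15 ids between npepps and ap1s2 with at least 1 rescaled TPM in any library, labelled by symbol and the last digits of the identifier. Open red symbols are sox10 mutants and filled blue symbols wild types. Wild types lie near 0 for most ids, and mutant 2 lies below mutants 1 and 3 for many of them.

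Beyond single calls, 39 gene lists for tissues and pathways were described by their medians. The list furthest below all genes was that of the lens crystallins, the structural proteins that fill lens fibre cells. Of 57 ids 45 were tested, 37 were lower without overlap and 1 higher (21.4% and 22.5% of all genes), and the median log2 fold change was -1.78. At an adjusted P of at most 0.10, 38 were lower, against 18.4% of all genes, though 0 passed 0.05. Summed crystallin levels were 5600, 10400 and 3560 rescaled TPM in mutants, against 15100, 21100 and 23400 in wild types. The abundant beta-crystallin gene crybb1 (ENSDARG00000068507) had 367, 902 and 219 in mutants, against 1470, 1720 and 1990 in wild types (-2.04 ± 0.48, limma adjusted P = 0.0556). Mutant 2 was the highest mutant for crybb1, and by list medians it stood at -0.89, with mutant 1 at -1.81 and mutant 3 at -2.30. Many crystallin genes are near-identical copies. Without mutant 2, 41 of the list were called lower and 2 higher, against 19.6% and 17.3% of all genes.

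Genes of phototransduction, from the same organ, had a median of 0.31. Of 36 tested, 7 were higher and 0 lower at an adjusted P of at most 0.10, where 15.8% and 18.4% of all genes were so, and the higher share is thus near that of all genes. The rod opsin gene rho overlapped, with 720, 953 and 671 rescaled TPM in mutants and 535, 788 and 657 in wild types.

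Genes of DNA replication and the cell cycle had one of the higher list medians. Of 22 tested, 16 were higher in mutants without overlap and 0 lower (22.5% and 21.4% of all genes), 17 were higher at an adjusted P of at most 0.10 (15.8% of all genes) and the median was 0.76. By list medians mutants 1, 2 and 3 stood at 0.90, 0.92 and 0.59, so mutant 2 was not set apart here. The ribonucleotide reductase subunit gene rrm2 (ENSDARG00000078069) had 31.7, 20.4 and 11.4 rescaled TPM in mutants, against 5.06, 5.85 and 5.36 in wild types (1.68 ± 0.33, limma adjusted P = 0.0556). The helicase subunit gene mcm4 (ENSDARG00000040041) had 10.6, 12.5 and 9.04 in mutants, against 7.28, 5.39 and 5.17 in wild types (0.76 ± 0.18, adjusted P = 0.0556). Another helicase gene, mcm7, overlapped widely, at 55.4, 156 and 94.5 in mutants and 120, 98.2 and 83.3 in wild types. None of the list was called at 0.05.

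All 13 protein genes of the mitochondrial genome were higher without overlap (22.5% of all genes), with a median of 1.57, and 0 were called. They held 18.6% and 16.2% of the TPM in mutants 1 and 3 as deposited and less in mutant 2, though more there than in any wild type, against 7.66%, 7.78% and 5.90% in wild types. The cytochrome oxidase gene COX1 (ENSDARG00000063905) had 39300, 17300 and 27000 rescaled TPM in mutants, against 10400, 10700 and 8340 in wild types (1.43 ± 0.35, limma adjusted P = 0.0564). The nuclear genes of the same respiratory complexes had a median of 0.12 over 114 tested, with 31 higher and 8 lower without overlap, where 22.5% and 21.4% of all genes were so. Cytosolic ribosomal proteins had a median of 0.25 over 83 tested, which became -0.10 relative to all genes under quantile normalization.

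Lists tied to growth and daily rhythm held 0 calls, which says little where 0.156% of all genes were called lower and 0.0810% higher. In the insulin-like growth factor (Igf) pathway, which drives the growth of calcium-transporting skin cells, 7 of 13 tested genes were lower without overlap and 0 higher (21.4% and 22.5% of all genes), and the median was -0.68. The binding protein gene igfbp1b (ENSDARG00000038666) had 14, 16.3 and 17.9 rescaled TPM in mutants, against 37.6, 33.4 and 56.5 in wild types (-1.32 ± 0.21, limma adjusted P = 0.0556). The docking protein gene irs2a (ENSDARG00000037099), which relays insulin and Igf receptor signals and was picked out after its values were seen, had 4.91, 9.32 and 7.41 in mutants, against 17.0, 23.0 and 31.7 in wild types (-1.59 ± 0.28, adjusted P = 0.0556). The binding protein gene igfbp5a, a marker of the calcium-transporting cells, was too low for limma, at 0.135, 0.596 and 0.0831 in mutants and 0.417, 0.736 and 0.736 in wild types (two-sided exact permutation test, p = 0.2).

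Of 33 core circadian clock genes, which keep the daily rhythm of transcription, 10 were lower without overlap and 0 higher, against 21.4% and 22.5% of all genes, with a median of -0.35. The most abundant, nr1d2b, was level between genotypes, with 115, 112 and 111 rescaled TPM in mutants and 116, 116 and 102 in wild types. A low member picked out after its values were seen, bmal1b (ENSDARG00000035732), which partners Clock, had 2.39, 5.18 and 2.07 in mutants, against 8.09, 9.50 and 14.3 in wild types (-1.50 ± 0.31, limma adjusted P = 0.0556). The hour at which each pool was frozen was not given in the sources used here.

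Immune lists were small in level. The interferon response had 4 tested genes of 14, 3 of them higher without overlap (22.5% of all genes), with a median of 0.75. The ubiquitin-like modifier gene isg15 (ENSDARG00000086374) had 2.06, 3.36 and 3.98 rescaled TPM in mutants, against 0.430, 1.13 and 1.42 in wild types (1.06 ± 0.26, limma adjusted P = 0.0564). Of 12 tested neutrophil and macrophage genes 6 were higher without overlap and 0 lower (22.5% and 21.4% of all genes), with a median of 0.33, and 0 were called. Their defining granule genes did not share this order, since lyz had 5.24, 15.6 and 9.38 in mutants and 13.5, 8.55 and 14 in wild types, and mpx was under 1 TPM in every library.

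**Figure D4:**
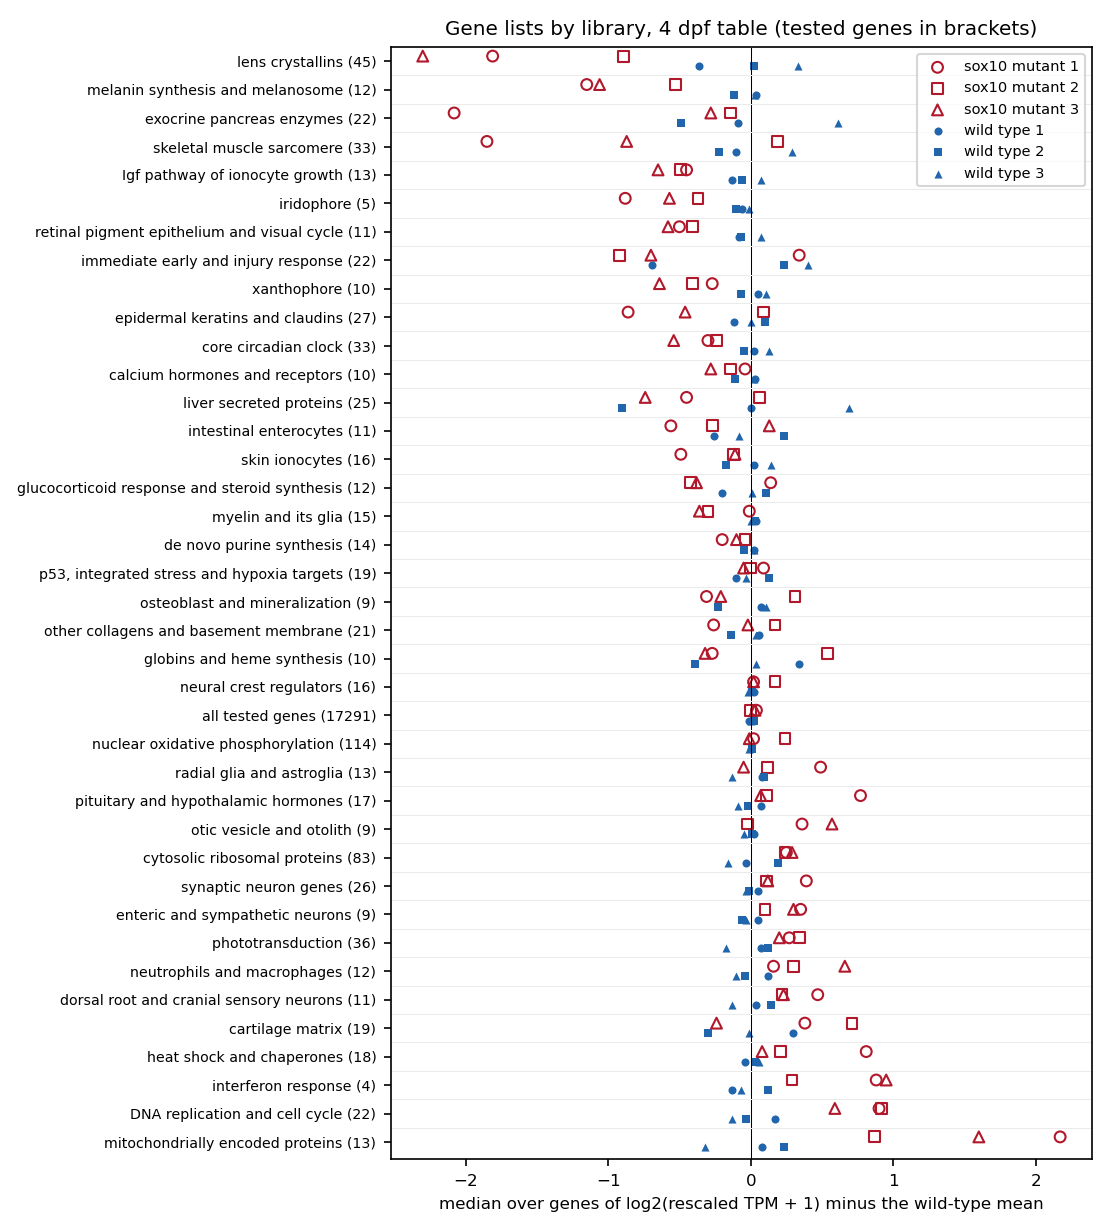
Each line is a gene list with its number of tested genes, and each point the median over those genes of log2(rescaled TPM + 1) minus the wild-type mean, for a sox10 mutant pool (open red) or a wild-type pool (filled blue). Lens crystallins have mutant medians of -1.81, -0.89 and -2.30 and cell cycle genes 0.90, 0.92 and 0.59, while mutant 2 sits among wild types for muscle at 0.19.

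For some abundant tissues mutant 2 sat with the wild types, and the lists could not be read as a difference between genotypes. Skeletal muscle had a median of -0.79 over 33 tested genes, yet its list medians were -1.85, 0.19 and -0.87 in mutants 1, 2 and 3. Only 2 muscle genes were lower and 2 higher without overlap, against 21.4% and 22.5% of all genes. The fast-muscle parvalbumin gene pvalb2 (ENSDARG00000002768) had 2160, 24700 and 8640 rescaled TPM in mutants, against 22200, 20300 and 26200 in wild types (limma adjusted P = 0.186). Mutant 1 was far below the wild types for this gene and mutant 2 inside their range. Without mutant 2, 21 of the muscle genes were called lower and 1 higher, against 19.6% and 17.3% of all genes. Epidermal keratins and claudins had list medians of -0.86, 0.09 and -0.46 in mutants 1, 2 and 3, and 9 of the list were called lower without mutant 2, against 19.6% of all genes. Exocrine pancreas enzymes had list medians of -2.08, -0.14 and -0.28, and the trypsin gene prss1 was at 104, 572 and 446 in mutants and 491, 307 and 626 in wild types. In the pancreas mutant 1 was therefore alone in being low.

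Lists of the crest and of its neuronal and skeletal derivatives held 0 calls. Of all genes, 0.156% were called lower and 0.0810% higher, so 0 calls in lists this short say little. Among 16 crest regulators 3 were lower and 5 higher without overlap (21.4% and 22.5% of all genes). These counts were 1 and 4 for 9 enteric and sympathetic neuron genes, and 1 and 5 for 11 sensory neuron genes. They were 1 and 1 for 9 osteoblast genes, and 1 and 3 for 19 cartilage matrix genes. Medians were 0.03 for 16 neural crest regulators, 0.28 for 9 enteric and sympathetic neuron genes, 0.34 for 11 sensory neuron genes, -0.04 for 9 osteoblast genes and 0.37 for 19 cartilage matrix genes. Of the osteoblast list, sparc, col1a1a, col1a1b and col1a2 were called lower in the study's own DESeq2 test at 4 dpf. The autonomic regulator phox2bb (ENSDARG00000091029) was above wild type in each mutant pool, at 15.9, 13.3 and 13.6 rescaled TPM, against 10.1, 9.60 and 10.4 in wild types (0.46 ± 0.12, limma adjusted P = 0.0580). The crest regulator sox5 (ENSDARG00000011582) was below, at 6.09, 10.0 and 7.02 in mutants, against 13.6, 12.1 and 14.4 in wild types (-0.75 ± 0.19, adjusted P = 0.0564). The ear genes, 9 of them tested, had a median of 0.22, and the otolith matrix gene stm overlapped, with 28.9, 26.0 and 24.2 in mutants and 40.6, 25.2 and 31.7 in wild types.

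The study asked how loss of Sox10 lowers larval calcium, and hormones of calcium balance were therefore read as a list. Of 10 tested genes pth1a alone was called, and the median was -0.34. At an adjusted P of at most 0.10, 4 were lower and 4 higher, against 18.4% and 15.8% of all genes. The stanniocalcin 1 gene, listed as stc1l (ENSDARG00000058476), encodes a hormone that restrains calcium uptake and had 20.1, 18.1 and 16.7 rescaled TPM in mutants, against 8.51, 5.32 and 9.90 in wild types (1.15 ± 0.22, limma adjusted P = 0.0556). Its groups did not overlap. Its adjusted P was 0.0183 without mutant 2, which made it a call, but 0.152 without mutant 1, 0.167 without mutant 3, 0.156 without wild type 1, 0.0545 without wild type 2 and 0.201 without wild type 3. Its relative stc2a (ENSDARG00000056680) had 14.8, 15.9 and 16.9 in mutants, against 9.10, 10.1 and 7.59 in wild types (0.77 ± 0.14, adjusted P = 0.0556). The enzyme gene cyp24a1 (ENSDARG00000103277), which breaks down active vitamin D, had 11.0, 13.1 and 15.2 in mutants, against 24.1, 37.4 and 62.4 in wild types (-1.49 ± 0.33, adjusted P = 0.0556). Both stc2a and cyp24a1 were picked out after their values were seen. In the study's own DESeq2 test at 4 dpf, stc1l was called and pth1a was not, the reverse of the calls here. The order of the effects was reversed too, as pth1a rose by 2.74 here and stc1l by 1.15, on the log2 scale. In the study's test the larger rise was that of stc1l. The study also reports higher stc1l, under the name stc1a, by rt-PCR and in situ hybridization, with more cells expressing it. It describes this rise as levelling out in the oldest larvae. The libraries used here may be of either age, so the tests may not be of the same samples. The reason for the reversal was not tested. The calcium channel gene trpv6 was under 1 TPM throughout, at 0.153, 0.252 and 0.480 in mutants and 0.448, 0.167 and 0.315 in wild types (two-sided exact permutation test, p = 0.9). Skin ionocyte genes, 16 of them tested, had a median of -0.25, and 3 were lower and 0 higher at an adjusted P of at most 0.10, the lower share being close to the 18.4% of all genes.

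Homozygous mutants all carry the chromosome with the deletion, so calls were also counted by position. By the GRCz12tu gene table, 2 of the 34 called genes with a position lie on that chromosome (pvalb5 and cenpx), which is 5.88%, against 5.20% of tested genes with a position. Of the 40 tested genes nearest to sox10, 20 on each side, 0 were called, 8 were lower without overlap (20.0%) and 7 higher (17.5%), close to the shares of all genes. Among them was the clock output gene tefb (ENSDARG00000098103), at 7.41, 48.1 and 12.9 rescaled TPM in mutants, against 108, 50.6 and 106 in wild types. Mutant 2 and wild type 2 nearly coincided for tefb (-2.24 ± 0.64, limma adjusted P = 0.0600).

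The effects in this table were set beside those of the 45 hpf table, which holds 6 other libraries (pools of 10 to 15 mutants and 10 to 25 wild types). There 80 genes fell (0.469%) and 26 rose (0.153%) among 17043 tested. Of the 41 called genes 27 could be tested at 45 hpf, 23 had the same direction and 11 were called there, all of them falls. The 7 rises that could be tested were not called at 45 hpf, and the lowest of their adjusted P there was 0.0980. A test of the difference itself, the interaction of genotype and table, was called for 51 genes with a lower effect in the 4 dpf table (0.269% of 18987) and 76 with a higher effect (0.400%). It was called for 23 of the 41, which were selected by their effect in the same 4 dpf libraries, so a difference was favoured in advance.

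Pigment genes divided by this comparison. The fall of lypc was alike, at -2.19 ± 0.16 here and -2.39 at 45 hpf (interaction 0.12, limma adjusted P = 0.771). Falls of defbl1, apoda.1 and si:dkey-251i10.2 were larger on this scale at 45 hpf, at -5.35, -4.02 and -6.70. Wild-type pools of the 45 hpf table had 39.2, 46.2 and 41.0 rescaled TPM of defbl1. Mutant values of these genes were near 0 in the 4 dpf table, so log2(rescaled TPM + 1) bounds their falls there by the wild-type level. With a pseudocount of 0.1 the falls in the 4 dpf table were -4.50, -3.77 and -3.98. Whether the loss itself differed was not tested. Falls of mlpha and pmela were deeper here, with 45 hpf values of -1.11 and -0.17 (interaction adjusted P = 0.0205 and 0.0464). Myoglobin had the widest opposite pair, with a fall of -2.21 here and a 45 hpf value of 0.65 that was not called (interaction -2.79, adjusted P = 0.00261). The rises of pth1a and smarca5 had 45 hpf values of 0.79 and -0.13 (interaction adjusted P = 0.0267 and 0.00261).

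**Figure D5:**
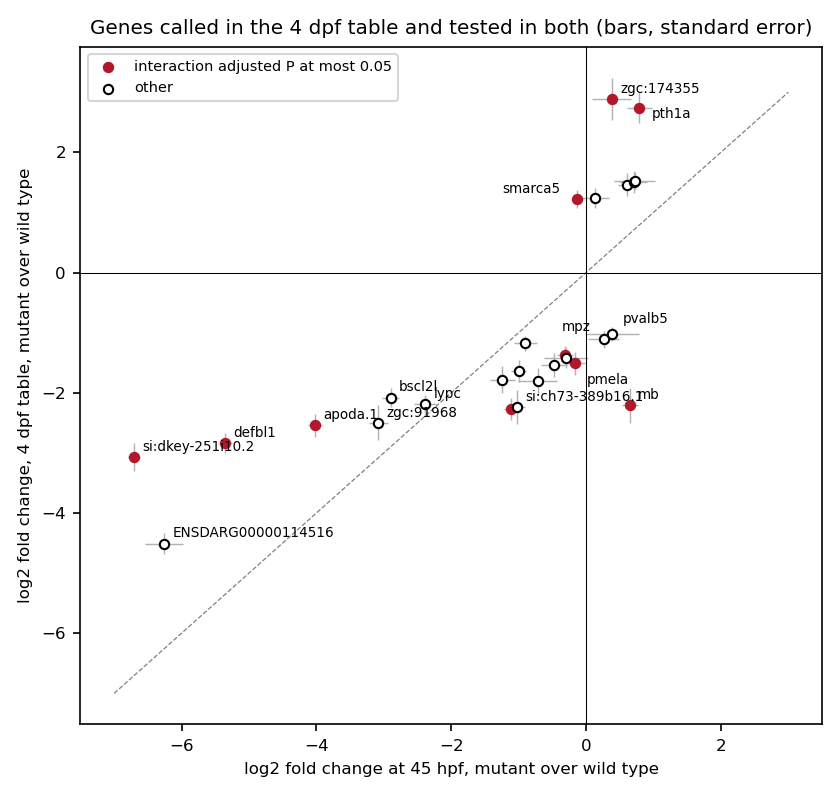
For the 27 called genes tested in both tables, the log2 fold change of sox10 mutants over wild types at 45 hpf is plotted against that in the 4 dpf table, with bars of 1 standard error and a dashed line of equality. Red points have an interaction adjusted P of at most 0.05. The 11 falls called in both tables lie in the lower left, and mb, pvalb5, mpz and smarca5 have opposite signs.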

How the data were processed

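Per the labels and methods, RNA from pooled whole larvae was poly-A selected and sequenced as stranded paired ends. The authors trimmed reads with Trimmomatic 0.39, quantified them with kallisto on Galaxy against GRCz11, tested them with DESeq2, and deposited TPM per gene and library. TPM keep no read counts, so depth is unknown and DESeq2 was not repeated here. The 315 lines that repeat a gene id were dropped, and of 3512 genes without a symbol 2096 were named from a gene-name table. Libraries were rescaled by the median of ratios to their geometric mean (factors 0.700, 0.980 and 0.920 for mutants 1, 2 and 3, and 1.240, 1.067 and 1.198 for wild types). Genes that reached 1 deposited TPM in 3 or more of the 6 libraries entered limma 3.58.1 (R 4.3.3, lmFit, eBayes with trend) on log2(rescaled TPM + 1), with genotype as the only factor and Benjamini-Hochberg adjustment. The interaction used 12 libraries and at least 1 TPM in at least 3. Genes under the filter had exact permutation tests, which cannot go below 0.1. The fits were tested on simulated data with noise drawn separately for each gene and library. Real libraries deviated across many genes at once, as mutant 2 did, so the simulation does not give the error rate of these data.

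Planned for naming were sox10, up to 15 of the largest calls each way, called or most abundant list members, genes above 10000 TPM, stc1l, trpv6 and igfbp5a. Added to these were the other called genes, the ids between npepps and ap1s2, the RBBP6-like ids, tefb and further list members. Members and lists were chosen with earlier results of these data known. The motif search planned for promoters was not run. Alternatives covered scaling, pseudocount, filters, variance model, library weights, a replicate block, thresholds and leaving out each library. Python 3.11.15, pandas 2.3.3, numpy 2.4.6, scipy 1.17.1 and matplotlib 3.10.9 were used.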

Additional observations from a re-analysis of the deposited data

Results flagged for a closer look

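The genotype effect differed between the 4 dpf table and the 45 hpf table for 23 of the 41 called genes, by the limma interaction term with Benjamini-Hochberg adjustment. The 41 were selected by their effect in the same 4 dpf libraries, which favours such a difference in advance. Values are the effect in the 4 dpf table minus that at 45 hpf, on the log2 scale, and no explanation was tested.

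Effects were lower in the 4 dpf table for mb by -2.79, klf9 by -2.69, si:dkey-200l5.4 by -2.42, si:dkey-201c13.2 by -2.21, LOC799643 by -1.88, cd59a by -1.71 and c1ql2 by -1.49. Pigment and myelin genes were lower by -1.27 for pmela, -1.25 for mlpha and -1.25 for mbpa, and the carrier gene slc25a47a by -0.99. Of these, cd59a, c1ql2, klf9, mbpa, LOC799643, si:dkey-200l5.4 and si:dkey-201c13.2 were too low at 45 hpf to be tested there alone.

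Effects were higher in the 4 dpf table for si:dkey-251i10.2 by 3.55, defbl1 by 2.37 and apoda.1 by 1.37, which fell in both tables and more so at 45 hpf. Among the rises they were higher by 2.64 for zgc:174355, 2.09 for pth1a, 1.99 for si:ch211-209f22.3, 1.97 for LOC100004392, 1.91 for LOC108191592, 1.91 for si:dkey-23f9.9, 1.87 for si:dkey-58b18.10, 1.43 for smarca5 and 1.18 for cyp27a1.2. Only 7 of the 14 called rises reached the level needed for a test in the 45 hpf table alone.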

How the results depend on the processing

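The main counts were 27 lower and 14 higher. They became 3249 and 269 with TPM as deposited, 818 and 835 with quantile normalization, 3998 and 3854 with array quality weights, 15 and 6 without the filter, 9 and 2 with a mean of at least 5 TPM, and 3182 and 2724 at an adjusted P of at most 0.10. Without an eBayes trend 25 were higher. Leaving out each library gave 1 to 3334 lower and 0 to 2940 higher. In the fits with 0 higher, 2122 (without wild type 1), 1770 (without wild type 3) and 2084 (without mutant 3) genes still had an unadjusted P under 0.05 and a higher mutant value. Of the 41 genes all were called again as deposited, under quantile normalization and with weights, 33 with a pseudocount of 0.1, 40 with size factors from tested genes only (an alternative chosen after seeing the data), 19 without the filter and 11 of 22 under the mean filter. No direction was reversed. Genes differing between tables were 51 and 76, or 41 higher as deposited, 132 higher with a pseudocount of 0.1, and 8 to 1728 lower and 16 to 2106 higher with each library left out. The most came without mutant 2 of the 4 dpf table.

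Same-numbered mutant and wild-type libraries deviated in opposite directions (r = -0.162, -0.636 and -0.338 across genes). Differently numbered ones ranged from r = -0.397 to 0.561. With so few libraries that deviate across many genes at once, this check cannot decide whether same-numbered pools were collected as pairs. With a replicate block 1 gene was lower and 0 higher, with 2740 and 2079 at an unadjusted P under 0.05, and 1 lower and 3 higher for the difference between tables. TPM carry no counts, so the depth limit of low genes cannot be given.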

Other observations

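Immediate early and injury response genes, which answer handling and activity within minutes, split the libraries within each genotype. Their list medians over 22 tested genes were 0.34, -0.92 and -0.70 in mutants 1, 2 and 3, and -0.69, 0.23 and 0.40 in wild types 1, 2 and 3. The transcription factor gene fosab had 103, 14.1 and 17.8 rescaled TPM in mutants, against 18.0, 85.5 and 113 in wild types (limma adjusted P = 0.483). Mutant 1 thus stood with wild types 2 and 3, and wild type 1 with mutants 2 and 3. The flow-responsive transcription factor gene klf2a was among the most abundant genes of the table in mutants 1 and 2, at 33400 and 27900 rescaled TPM, but not in mutant 3, at 3620, against 1250, 2470 and 4320 in wild types (adjusted P = 0.0766).

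The bile acid-binding protein gene fabp6 of the distal intestine had 68.6, 159 and 95.2 rescaled TPM in mutants, against 421, 541 and 402 in wild types (-2.14 ± 0.31, limma adjusted P = 0.0556). The other tested enterocyte genes had no such separation, and the list median was -0.25 over 11. Heat shock and chaperone genes had a median of 0.46 over 18, with 6 higher and 1 lower without overlap (22.5% and 21.4% of all genes). The most abundant, hspa8, overlapped at 2550, 1570 and 1920 in mutants and 1340, 1810 and 1210 in wild types. Yolk protein genes were under 1 TPM in all libraries.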
